A study of Oryza sativa with 18 samples.

Results

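A set of 300 genes stood higher in rice callus overexpressing BOC1 (pOE) than in callus of 2 separate Teqing cultures, out of 36843 annotated genes measured in both transgenic experiments. A gene was taken when its mean pOE level was at least 5 FPKM (fragments per unit of gene length and of sequencing depth) and its lowest pOE library exceeded 2 times the highest of the 6 Teqing2 and Teqing3 libraries. Of 13832 genes with a mean of at least 5 FPKM in pOE, 376 lay within these limits (2.72%), and the 300 with the largest ratio of the lowest pOE level to the highest Teqing level plus 1 were kept. BOC1 itself was left out. Since the levels in pOE, Teqing2 and Teqing3 chose the genes, the contrast between these groups is a description, and a test of it supports nothing.

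The calli of all groups were induced from mature seeds for a week on medium without anti-browning additives, then subcultured in the dark and collected at 21 days. pOE calli were Teqing, an indica cultivar, carrying the BOC1 coding sequence of YIL25 behind a Ubiquitin promoter, which is active in most cells. pCPL calli were Teqing carrying a genomic fragment of YIL25 with BOC1 under its own promoter. YIL25 is an introgression line in the Teqing background with wild rice segments on the short arms of chromosomes 2, 3 and 5. The Teqing cultures sequenced beside YIL25, pCPL and pOE are called Teqing1, Teqing2 and Teqing3, with 3 libraries in each of the 6 groups, which the study calls biological replicates. The sources used here do not say which transgenic line was sequenced, and a line is not separated from its transgene by these libraries. Each library rested on 16402100 to 43391600 reads as recovered from the values. BOC1 (LOC_Os03g12820) was at 577, 576 and 584 FPKM in pOE and at 102, 100 and 103 FPKM in pCPL, against 58.0, 57.5 and 57.4 FPKM in Teqing2 and 64.7, 68.4 and 63.3 FPKM in Teqing3. The summed level of 3 loci fixed as markers of dividing or embryogenic callus was 100 to 106 FPKM in pOE and 165 to 176 FPKM in pCPL. It was 177 to 181 FPKM in Teqing2 and 95.0 to 100.2 FPKM in Teqing3. These loci did not move together. LOC_Os11g19060 averaged 40.4 FPKM in pOE and 74.7 FPKM in pCPL, against 83.9 FPKM in Teqing2 and 42.7 FPKM in Teqing3. LOC_Os02g56130 averaged 56.0 FPKM in pOE and 73.6 FPKM in pCPL, against 84.4 FPKM in Teqing2 and 41.5 FPKM in Teqing3. LOC_Os07g48560 averaged 6.79 FPKM in pOE and 22.2 FPKM in pCPL, against 10.1 FPKM in Teqing2 and 13.7 FPKM in Teqing3. The summed level of 4 loci fixed as leaf markers was 5.32 to 6.89 FPKM in pOE and 12.2 to 13 FPKM in pCPL. It was 52.7 to 61.3 FPKM in Teqing2 and 48.3 to 51.6 FPKM in Teqing3. Of the leaf loci, LOC_Os09g17740 averaged 3.02 FPKM in pOE and 12.3 FPKM in pCPL, against 54.9 FPKM in Teqing2 and 49.0 FPKM in Teqing3. LOC_Os01g41710 went the other way, with 3.26 FPKM in pOE and 0.338 FPKM in pCPL, against 0.983 FPKM in Teqing2 and 0.507 FPKM in Teqing3, and LOC_Os12g19470 was at 0 in these 4 groups. The summed level of 3 endosperm loci was at most 7.59 FPKM. The part of these differences in the results was not tested.

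Callus is a mass of dividing plant cells grown in culture. It browns when phenolic compounds are oxidised, a process tied to wounding, reactive oxygen and cell death, and browned callus regenerates poorly. BOC1 encodes an SRO protein, a member of a plant family related to RCD1 of Arabidopsis that acts in stress and redox responses. In bulk callus RNA, a change in the share of a cell type cannot be told apart from a change in RNA per cell.

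The levels of the 300 genes in pOE ranged over 3 orders of magnitude. Mean levels reached from 5.04 to 5055 FPKM with a median of 32.8 FPKM, against a median of 18 FPKM over all genes with at least 5 FPKM in pOE. There were 40 genes at 5 to 10 FPKM, 80 above 100 FPKM and 9 above 1000 FPKM. The lowest pOE library was a median of 3.04 times the highest Teqing library, over 5 times in 51 genes and over 10 times in 16. In 16 genes every Teqing2 and Teqing3 library was under 1 FPKM. Replicates lay close together, with a median coefficient of variation of 4.84% in pOE, 9.28% in pCPL, 10.2% in Teqing2 and 9.83% in Teqing3. At the edge of the set, LOC_Os03g47280, LOC_Os02g50710 and LOC_Os04g55710 were the last genes kept, with ranking ratios of 1.938, 1.937 and 1.934. LOC_Os08g39730, LOC_Os01g48390 and LOC_Os01g14540 were the first left out, at 1.933, 1.933 and 1.923.

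The gene with the largest ratio was detected in pOE alone among these 4 groups. LOC_Os06g23870 on chromosome 6 (13947426 to 13951272, in the coordinates of the authors' tables for IRGSP-1.0) had 18.4, 15.7 and 19.6 FPKM in pOE, and it was listed at 0 in all pCPL, Teqing2 and Teqing3 libraries. It was the only one of the 300 listed at 0 in all 6 of these Teqing libraries. LOC_Os11g31540 combined a large ratio with a high level, at 423, 428 and 413 FPKM in pOE. It had 11.1, 9.72 and 12.7 FPKM in pCPL, 11.7, 11.4 and 9.16 FPKM in Teqing2 and 35.9, 35.7 and 33.3 FPKM in Teqing3. The 3 groups without the overexpression construct were thus not at one level for this gene, since Teqing3 was about 3 times the others. LOC_Os05g15920 followed the same order of size with 278, 284 and 284 FPKM in pOE, against 25, 24.8 and 25.1 FPKM in Teqing2 and 29.5, 26.8 and 28.5 FPKM in Teqing3. In pCPL it was lower than in any Teqing library, at 9.10, 10.9 and 10.8 FPKM.

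Other genes at the top of the ranking were low in every group but pOE. LOC_Os11g29420 had 39.6, 35.5 and 39.2 FPKM in pOE and at most 2.73 FPKM in any Teqing2 or Teqing3 library. LOC_Os09g04384 had 11.1, 10.2 and 11.4 FPKM in pOE and was listed at 0 in all 3 Teqing2 libraries. LOC_Os04g25650 had 59.5, 56.5 and 55.8 FPKM in pOE, against 2.58, 3.70 and 3.15 FPKM in Teqing2 and 4.42, 5.45 and 3.05 FPKM in Teqing3. The remaining names in the first 12 were LOC_Os05g40070, LOC_Os07g46846, LOC_Os04g01354, LOC_Os10g11580 and LOC_Os07g03620, with pOE levels between 9.00 and 36.2 FPKM, and LOC_Os08g39290. LOC_Os08g39290 had 87.2, 88.4 and 91.0 FPKM in pOE and intermediate levels of 19.5, 18.2 and 15.4 FPKM in pCPL, against 7.49, 8.78 and 9.10 FPKM in Teqing2 and 7.66, 8.67 and 6.16 FPKM in Teqing3. No annotation in the sources used here describes these genes, so they are named by locus only.

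**Figure D1:**
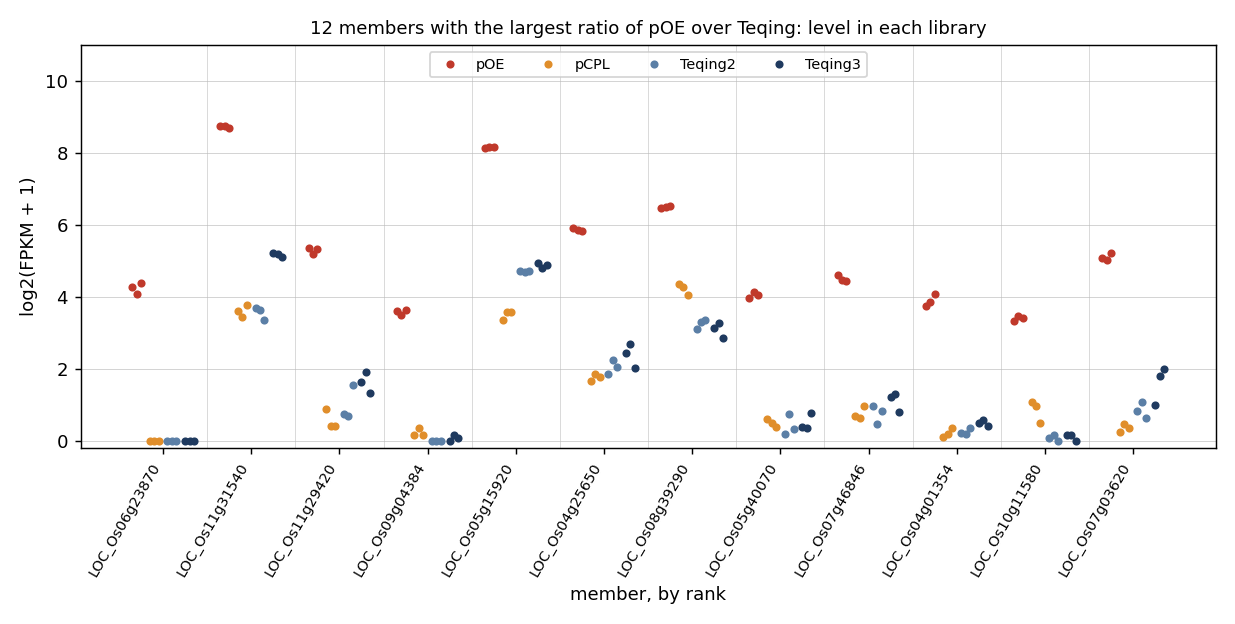
Level of the 12 genes with the largest ratio in each library, as log2(FPKM + 1), with 3 points per group for pOE, pCPL, Teqing2 and Teqing3. The pOE points stand above all others for every gene, as the choice of genes requires, and for LOC_Os06g23870 the other 9 points lie at 0.

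The most abundant genes were also the members of a few neighbourhoods. LOC_Os12g36830 had the highest level of all, with 5048, 5084 and 5033 FPKM in pOE, against 821, 877 and 850 FPKM in Teqing2 and 1083, 1129 and 1075 FPKM in Teqing3. LOC_Os08g04240 followed with 3618, 3583 and 3631 FPKM in pOE, against 1286, 1285 and 1299 FPKM in Teqing2 and 1587, 1624 and 1560 FPKM in Teqing3. Its neighbour LOC_Os08g04250 had 2024, 2047 and 2061 FPKM in pOE, against 567, 558 and 560 FPKM in Teqing2 and 577, 590 and 581 FPKM in Teqing3. The gap to Teqing was narrower for LOC_Os08g04240, just over 2 times, than for LOC_Os12g36830. LOC_Os12g36880 (mean 2944 FPKM in pOE), LOC_Os10g31420 (2222 FPKM), LOC_Os06g04990 (1135 FPKM), LOC_Os12g36850 (1104 FPKM) and LOC_Os05g15880 (1063 FPKM) completed the 8 highest.

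A functional description was at hand for 10 of the 300 genes. These descriptions cover only genes that the study had selected from these same libraries, in its list of genes lower in YIL25 and pCPL and higher in pOE (DDU), so the direction of the 10 genes is not independent evidence. The 290 DDU loci match 299 entries of the joined tables, of which 204 had at least 5 FPKM in pOE and 16 lay within the limits used here. Of 34 lists of descriptive words, 5 held 1 of the 300 genes each and 29 held none. The 5 were browning enzymes, proteases of cell death and senescence, pathogenesis-related proteins, cytochromes P450 and protein kinases. The 290 genes of the set without a description could enter no list, and some lists matched no DDU gene at all. A list that held none therefore does not show that its family is absent from the 300 genes.

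PBZ (LOC_Os12g36850), a pathogenesis-related protein of the Bet v I family, is the most abundant of the 10. It lies on chromosome 12 from 22591681 to 22593505 and is the one of the 300 genes for which the RT-qPCR primers of the study are given here, so that the assayed transcript can be identified.
LOC_Os12g36850 forward: agggagcgtatacaagaccaa
LOC_Os12g36850 reverse: accctgctcttaacctccaa
Its level was 1110, 1096 and 1106 FPKM in pOE and 175, 182 and 172 FPKM in pCPL, against 377, 384 and 369 FPKM in Teqing2 and 296, 301 and 289 FPKM in Teqing3. Thus pOE stood about 3 times above both Teqing cultures, and pCPL stood below both. On the log2 scale pCPL differed from Teqing2 by -1.09 (standard error, SE, 0.0307, limma adjusted p = 3.11e-09).

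Enzymes made up much of the described group. LOC_Os12g15680, annotated as a laccase precursor, belongs to the copper oxidases that oxidise phenolic compounds. It had 15.1, 17.5 and 14.5 FPKM in pOE and 0.423, 0.509 and 0.346 FPKM in pCPL, against 2.04, 1.83 and 2.67 FPKM in Teqing2 and 1.25, 1.33 and 1.26 FPKM in Teqing3. LOC_Os12g16720, a cytochrome P450 and hence a monooxygenase, had 110, 104 and 107 FPKM in pOE and 7.69, 8.14 and 7.81 FPKM in pCPL, against 33.3, 36.3 and 36.0 FPKM in Teqing2 and 16.9, 18.7 and 17.4 FPKM in Teqing3. The libraries of the 4 groups did not overlap for either gene. LOC_Os10g35950, of a transferase family, had means of 62.4 FPKM in pOE and 3.81 FPKM in pCPL, against 17.6 FPKM in Teqing2 and 5.36 FPKM in Teqing3. LOC_Os04g10000 carries the name of tasselseed-2, a dehydrogenase required for sex determination in maize flowers, and averaged 109 FPKM in pOE and 9.02 FPKM in pCPL, against 20.6 FPKM in Teqing2 and 13 FPKM in Teqing3.

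Signalling and other proteins formed the rest. LOC_Os07g03200, annotated as a precursor of phytosulfokines, the sulfated peptides that promote growth of plant cells in culture, had 178, 177 and 171 FPKM in pOE and 12, 12.4 and 11.8 FPKM in pCPL, against 24.2, 28.6 and 26.2 FPKM in Teqing2 and 31.0, 36.9 and 30.9 FPKM in Teqing3. LOC_Os10g39300, a nepenthesin-type aspartic proteinase, averaged 14.3 FPKM in pOE and 0.484 FPKM in pCPL, against 2.37 FPKM in Teqing2 and 2.55 FPKM in Teqing3. The tetraspanin gene LOC_Os03g63620, for a membrane protein, averaged 18.7 FPKM in pOE, against 5.83 FPKM in Teqing2 and 1.62 FPKM in Teqing3. The cupin gene LOC_Os12g05870 averaged 17.6 FPKM in pOE, against 5.58 FPKM in Teqing2 and 4.34 FPKM in Teqing3. The protein kinase gene LOC_Os12g30180 averaged 9.32 FPKM in pOE, against 2.08 FPKM in Teqing2 and 2.85 FPKM in Teqing3. All 10 had a lower mean in pCPL than in Teqing2, which the choice of the DDU list favours.

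**Figure D2:**
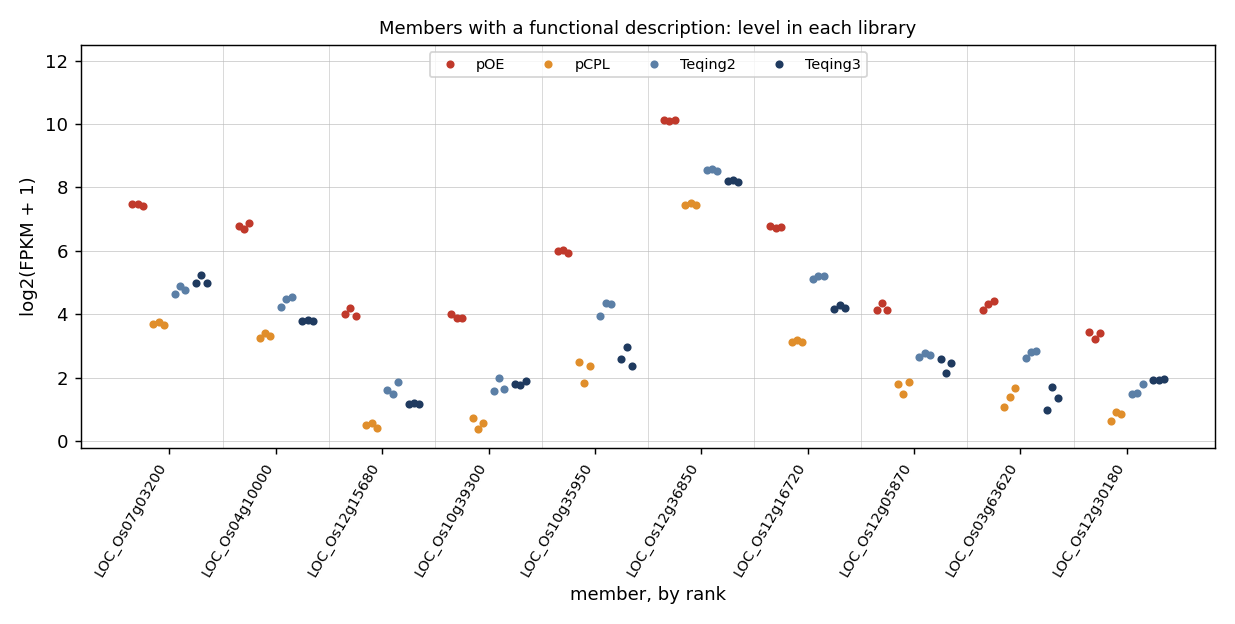
Level of the 10 genes with a functional description in each library, as log2(FPKM + 1), with 3 points per group for pOE, pCPL, Teqing2 and Teqing3. LOC_Os12g36850 is the highest at 1096 to 1110 FPKM in pOE, and for each gene the pCPL points lie at the bottom or level with the lower Teqing group.

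Many of the 300 genes were neighbours on the chromosomes. For 85 of them (28.3%) the next gene on at least 1 side was also in the set, and this was so for 4.10% of all genes with at least 5 FPKM in pOE. Joining genes less than 100 kb apart gave 15 runs of 3 or more that held 67 genes, with a further 48 in pairs and 185 alone. By chromosome, their share of the genes with at least 5 FPKM was highest on chromosome 10 (27 genes, 4.11%) and lowest on chromosome 3 (21 genes, 1.05%), which carries BOC1. Neighbours may be copies of one another whose reads the counting could divide between them. Sequence similarity was not examined here, and gene by gene values within a run are uncertain to that extent.

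The largest run held 8 of the 11 genes with at least 5 FPKM between 16426027 and 16600321 on chromosome 10. LOC_Os10g31420 was the most abundant of them, with 2276, 2162 and 2229.5 FPKM in pOE and 256, 239 and 258 FPKM in pCPL, against 245, 260 and 233 FPKM in Teqing2 and 382, 475 and 415 FPKM in Teqing3. LOC_Os10g31330 had 1108, 989 and 1029 FPKM in pOE and LOC_Os10g31440 had 825, 743 and 726 FPKM. LOC_Os10g31460 had 413, 426 and 394 FPKM, while LOC_Os10g31320, LOC_Os10g31660, LOC_Os10g31670 and LOC_Os10g31540 had means of 167, 138, 57.9 and 28.7 FPKM. The genes of the run parted unevenly in pCPL against Teqing2. By limma 2 were called higher and 1 lower, where 7.84% and 5.97% of all genes tested were. Every pCPL library was above every Teqing2 library in 5 and below in 1, where 36.0% and 41.6% of genes with at least 5 FPKM in pOE did so. LOC_Os10g31460 was called higher just past the fold limit (log2 fold change 1.01). In 6 of the 8 genes every Teqing3 library was above every Teqing2 library, as in 39.1% of genes with at least 5 FPKM in pOE. LOC_Os10g31440 was higher in pCPL than in Teqing2, at 208, 192 and 210 FPKM in pCPL against 61.5, 66.6 and 59.9 FPKM in Teqing2 (log2 fold change 1.68, SE 0.0488, limma adjusted p = 3.71e-09). Its lowest pCPL library was not over 2 times the highest Teqing3 library. LOC_Os10g31670 was lower, at 1.46, 1.30 and 1.11 FPKM in pCPL against 8.27, 9.10 and 9.60 FPKM in Teqing2 (log2 fold change -2.12, SE 0.104, limma adjusted p = 1.03e-07).

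The run on chromosome 2, from 21662608 to 21847532, held 7 of the 8 genes with at least 5 FPKM there, and it is the one large run that the YIL25 table covers. LOC_Os02g36110 had 202, 207 and 221 FPKM in pOE, LOC_Os02g36210 had 138, 135 and 140 FPKM and LOC_Os02g36140 had 89.4, 91.0 and 90.9 FPKM. LOC_Os02g36070 and LOC_Os02g36030 averaged 47.6 and 39.0 FPKM in pOE, and Os02g0571000 and LOC_Os02g36190 averaged 15.3 and 6.98 FPKM. Os02g0571000 and LOC_Os02g36210 overlap in position, so their reads may not be fully separated. In 6 of the 7 genes every Teqing3 library was above every Teqing2 library, as in 166 of the 300 genes and in 39.1% of genes with at least 5 FPKM in pOE.

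The third run lay on chromosome 7 from 27969862 to 28077583 and held 6 of 7 genes with at least 5 FPKM. LOC_Os07g46990 had 350, 371 and 370 FPKM in pOE, against 46.8, 47.7 and 46.1 FPKM in Teqing2 and 151, 150 and 153 FPKM in Teqing3. The other genes, LOC_Os07g46800, LOC_Os07g46846, LOC_Os07g46852, LOC_Os07g46860 and LOC_Os07g46870, averaged 18.7 to 35.2 FPKM in pOE. By limma 0 of the 5 tested in pCPL passed in either direction, with 1 higher and 1 lower at an unadjusted p under 0.05 and 1 lower by voom on recovered reads. A run of 4 on chromosome 12, from 22580880 to 22601182, took in all 4 genes of at least 5 FPKM there. It comprises PBZ, LOC_Os12g36830, LOC_Os12g36880 and LOC_Os12g36860, the last with 261, 251 and 258 FPKM in pOE and 15.7, 17.5 and 20.5 FPKM in pCPL, against 28.9, 28.8 and 32.1 FPKM in Teqing2 and 40.5, 39.8 and 40.4 FPKM in Teqing3. In all 4 of these genes every pCPL library was below every Teqing2 library, as in 41.6% of genes with at least 5 FPKM in pOE, and only PBZ reached the fold threshold.

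**Figure D3:**
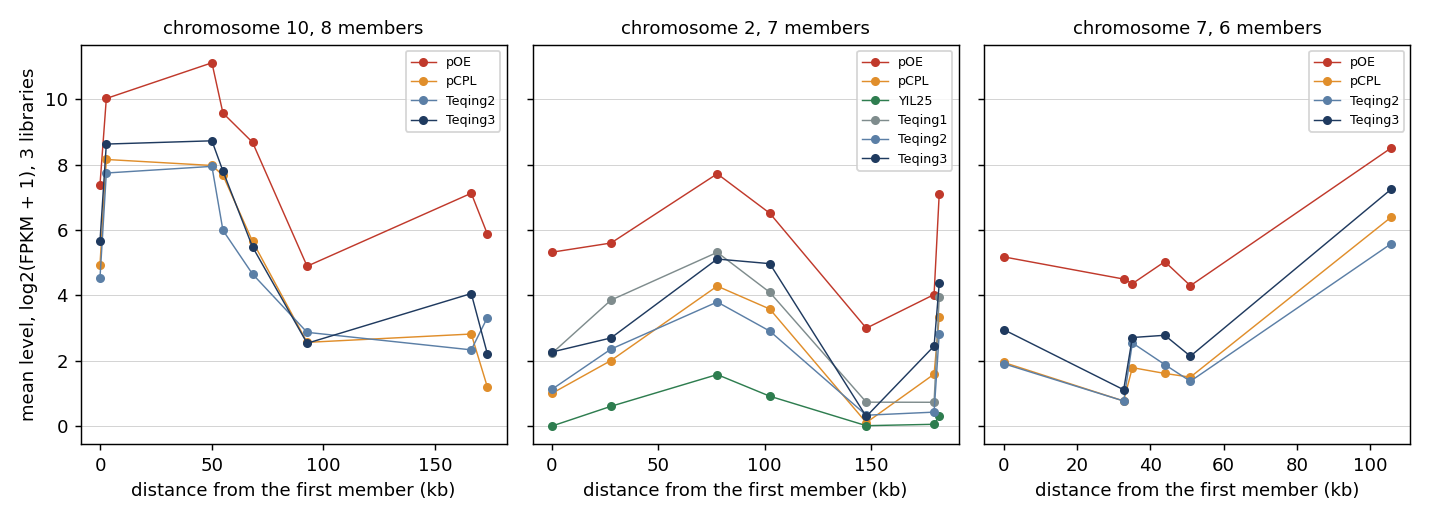
Mean level of the genes in the 3 largest runs, as log2(FPKM + 1) over 3 libraries, against distance in kb from the first gene of the run, with 1 line per group. pOE is the top line throughout, and on chromosome 2 the YIL25 line lies at the bottom, at or below 2.24 FPKM in every library.

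The 300 genes were short. Their median length in the authors' tables was 993.5 bases, against 1522 bases over genes with at least 5 FPKM in pOE. Under 1000 bases were 151 of them (50.3%, against 24.1%), and over 3000 bases were 5 (1.67%, against 10.4%). Length enters FPKM as a divisor, and its part in the choice of genes was not tested.

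The comparison of pCPL with Teqing2 asks whether the genes moved when BOC1 was raised from its own promoter. It is not fully independent, because Teqing2 was among the groups that the choice of genes kept low. In pOE against Teqing3 all 300 passed the test used for all comparisons (limma on log2(FPKM + 1), adjusted p under 0.001 and a fold change of at least 2), as the choice of genes forces, where 6.95% of all genes tested were higher. In pCPL 34 of the 300 genes were higher and 17 lower than in Teqing2, with 274 tested. Over all 21659 genes tested, 7.84% were higher and 5.97% were lower. The median log2 fold change was 0.11 over the genes tested here and -0.01 over all genes tested. Without a filter, every pCPL library was above every Teqing2 library in 119 of the 300 genes and below in 86, where 36.0% and 41.6% of genes with at least 5 FPKM in pOE did so. At an adjusted p under 0.05 with no fold limit, 116 were higher and 81 lower, where 35.0% and 35.6% of all genes tested were. The gap in pOE was fixed by the choice of genes, so its size is not read against the changes in pCPL. The lowest pOE library was more than 2 times the highest pCPL library in 270 genes, against 6.83% of genes with at least 5 FPKM, a contrast that the choice of genes by their lowest pOE level favours and from which nothing is read.

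Some genes were high in both transgenic lines. In 9 genes the lowest pCPL library exceeded 2 times the highest Teqing2 or Teqing3 library (3%), which held for 0.311% of genes with at least 5 FPKM in pOE. The choice of genes low in Teqing2 and Teqing3 favours this share, and nothing is read from it. In 3 of these 9 genes pCPL was above pOE. Os10g0344800 had 7.90, 7.42 and 8.50 FPKM in pOE and 84.3, 87.9 and 81.4 FPKM in pCPL, against at most 0.539 FPKM in any Teqing2 or Teqing3 library (log2 fold change in pCPL 6.12, SE 0.129, limma adjusted p = 5.08e-10). LOC_Os07g05840 had 8.10, 8.79 and 9.12 FPKM in pOE and 17.0, 16.4 and 17.1 FPKM in pCPL, against at most 0.0803 FPKM in Teqing2 and Teqing3. LOC_Os03g02470 had 446, 430 and 452 FPKM in pOE and 979, 932 and 936 FPKM in pCPL, against 120, 127 and 124 FPKM in Teqing2 and 84.5, 89.9 and 83.8 FPKM in Teqing3. LOC_Os12g24330 was level in both lines, at 30.3, 32.5 and 34.2 FPKM in pOE and 33, 32.9 and 32 FPKM in pCPL, against 2.80, 3.64 and 2.90 FPKM in Teqing2 and 9.60, 10.7 and 9.54 FPKM in Teqing3. LOC_Os09g30490 is outside the 9 genes but among the 5 largest increases in pCPL. It had 175, 168 and 183 FPKM in pCPL against 28.1, 28.0 and 26.2 FPKM in Teqing2. With LOC_Os09g31000 and LOC_Os09g31040 it forms a run on chromosome 9 in which all 3 genes were higher in pCPL than in Teqing2. In these 3 genes every Teqing3 library was above every Teqing2 library, as in 39.1% of genes with at least 5 FPKM in pOE.

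A like number went the other way. In 9 genes (3%) the highest pCPL library was below 0.5 times the lowest Teqing2 or Teqing3 library, where 0.499% of genes with at least 5 FPKM did so. Against Teqing2 alone, LOC_Os09g25070 fell most by the log2 fold change (-2.19, SE 0.0961, limma adjusted p = 5e-08). It had 1.18, 1.07 and 1.29 FPKM in pCPL against 9.53, 8.77 and 8.66 FPKM in Teqing2, though Teqing3 was at 1.49, 2.14 and 2.52 FPKM. LOC_Os01g47070 had 8.68, 6.54 and 6.96 FPKM in pCPL against 35.8, 32.7 and 35.9 FPKM in Teqing2 (-2.10, SE 0.0925, limma adjusted p = 5.16e-08). The other large decreases against Teqing2 were LOC_Os10g31670, the cytochrome P450 gene LOC_Os12g16720 and the transferase gene LOC_Os10g35950, at -2.12, -2.03 and -1.97. Of these 5 largest decreases only LOC_Os10g31670 and LOC_Os12g16720 were among the 9 genes. The others were not below 0.5 times both Teqing cultures in every library.

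Cultures of Teqing differed from each other as well. Among the 300 genes every Teqing3 library was above every Teqing2 library in 166 and below in 48, where 39.1% and 40.2% of genes with at least 5 FPKM in pOE did so. The median log2 ratio of Teqing3 to Teqing2, on FPKM plus 1, was 0.36 over the 300 genes and -0.02 over those genes. Over the series, 1356 of 13934 genes with at least 5 FPKM in Teqing3 had their lowest Teqing3 library over 2 times the highest Teqing2 library (9.73%), and 5.85% of genes with at least 5 FPKM in Teqing2 showed the opposite. Calls within a table therefore measure a line and its culture together against 1 Teqing culture, and these cannot be told apart.

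**Figure D4:**
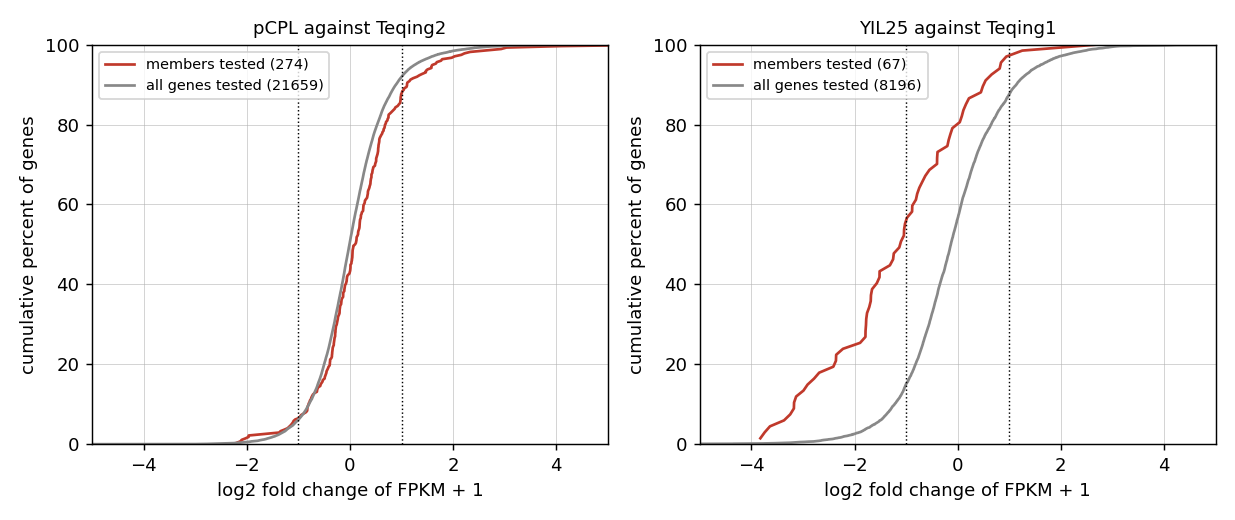
Cumulative percent of genes by log2 fold change of FPKM + 1, for the genes of the set that were tested (red) and all genes tested (grey), in pCPL against Teqing2 (left) and in YIL25 against Teqing1 (right), with dotted lines at a 2-fold change. The curves run close together on the left, with medians of 0.11 and -0.01, and apart on the right, with medians of -1.10 and -0.13.

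The comparison of YIL25 with Teqing1 uses no library that chose the genes. The YIL25 table lists 77 of the 300 genes, 46 on chromosome 1, 27 on chromosome 2 and 4 at the start of chromosome 3. In YIL25 36 of the 77 genes were lower than in Teqing1 and 2 were higher. Of all 8196 genes tested, 12.7% were lower and 8.41% were higher. In all 77 genes, filtered or not, every YIL25 library was below every Teqing1 library in 56 (72.7%) and above in 10 (13%), where 53.7% and 28.2% of the 4072 listed genes with at least 5 FPKM in pOE did so. The highest YIL25 library was below 0.5 times the lowest Teqing1 library in 38 genes (49.4%, against 12.2%). The share of genes called lower was thus above that of all genes tested. On chromosome 1, 21 of 46 genes were lower and 0 higher by limma (30 and 3 at an unadjusted p under 0.05), where 12.9% and 5.88% of all genes tested on that chromosome were so called. On chromosome 2, 15 of 27 were lower and 2 higher, where 12.9% and 7.45% of its genes were. Of the 4 on chromosome 3, 0 passed by limma (1 lower and 2 higher at an unadjusted p under 0.05), where 10.6% and 6.68% of its genes were called lower and higher. At an adjusted p under 0.05 with no fold limit, 50 of the 77 were lower and 9 higher, where 43.2% and 29.5% of all genes tested were.

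The filter on low levels bears on these counts. Only 67 of the 77 genes had a mean above 1 FPKM in YIL25 or Teqing1 and were tested, and 20 of them passed through Teqing1 alone. Of the 47 genes above 1 FPKM in both groups, 20 were lower and 2 higher. The matching share over all genes above 1 FPKM in both groups was not computed, so nothing is read from this count. The median log2 ratio of the means plus 1 was -0.89 over all 77 genes with no filter, and -0.19 over the listed genes with at least 5 FPKM in pOE. All genes tested had a median log2 fold change of -0.13, a shift toward lower values in YIL25 that the members' values include, and median-of-ratios scaling moved it to 0.05 and the count of lower genes to 31.

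Of the 5 largest decreases in YIL25, 4 were on the long arm of chromosome 2. LOC_Os02g39330 had 1.99, 1.65 and 1.81 FPKM in YIL25 against 40.1, 39.7 and 37.2 FPKM in Teqing1 (log2 fold change -3.83, SE 0.0669, limma adjusted p = 1.59e-07). The next came from the run of 7. LOC_Os02g36110 had 1.97, 2.24 and 1.73 FPKM in YIL25 against 37.8, 40.7 and 38.1 FPKM in Teqing1 (-3.74, SE 0.0776, limma adjusted p = 2.6e-07). LOC_Os02g36210 had 0.272, 0.196 and 0.255 FPKM in YIL25 against 14.3, 14.0 and 15.2 FPKM in Teqing1, and LOC_Os02g36070 had 0.580, 0.488 and 0.496 FPKM against 13.5, 14.3 and 12.7 FPKM. LOC_Os02g36030 was listed at 0 in all YIL25 libraries and had 3.67, 3.59 and 3.77 FPKM in Teqing1. With LOC_Os02g36140 (0.921, 0.926 and 0.807 FPKM against 14.9, 16.7 and 16.6 FPKM) 5 of the 7 genes of the run were lower, and LOC_Os02g36190 and Os02g0571000 were under 1 FPKM in both groups. In all 7 the YIL25 libraries were below the Teqing1 libraries, as in 53.7% of the listed genes with at least 5 FPKM in pOE. Without this run, 31 genes were lower in YIL25, a choice made after the data were seen.

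On chromosome 1 the largest decrease was in LOC_Os01g68580, which had 2.30, 1.58 and 2.67 FPKM in YIL25 against 33.1, 32.4 and 29.2 FPKM in Teqing1 (-3.37, SE 0.135, limma adjusted p = 2.23e-06). Its neighbour LOC_Os01g68589 had 2.95, 1.85 and 2.67 FPKM in YIL25 against 17.3, 15.2 and 17.9 FPKM in Teqing1. LOC_Os01g47070, one of the large decreases in pCPL, had 3.59, 3.73 and 5.13 FPKM in YIL25 against 8.84, 9.22 and 10.1 FPKM in Teqing1 (-1.02, SE 0.124, limma adjusted p = 0.000334), a call at the fold limit that was lost under 7 alternatives. Of the 17 genes lower in pCPL, 4 are listed for YIL25, and LOC_Os01g47070 was the only one of these called lower there. LOC_Os01g51870 and Os01g0183950, also among the 4, were not tested in YIL25.

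Both genes that were higher in YIL25 lay on the short arm of chromosome 2. With median-of-ratios scaling 5 genes were higher, and the added ones were LOC_Os02g18650, just past the fold limit, LOC_Os02g37490 on the long arm (log2 fold change 1.14) and LOC_Os03g02470 on chromosome 3 (1.04). LOC_Os02g08230 (4355073 to 4362388) had 63.3, 64.0 and 62.3 FPKM in YIL25 against 9.05, 9.80 and 8.05 FPKM in Teqing1 (2.69, SE 0.0676, limma adjusted p = 4.81e-07), above even its pOE level of 34.6, 33.9 and 37.2 FPKM. It stands beside LOC_Os02g08220, which was lower in YIL25 at 2.53, 2.64 and 2.45 FPKM against 6.08, 6.10 and 6.72 FPKM in Teqing1. That call lay at the fold limit (-1.04, SE 0.0784, limma adjusted p = 3.31e-05) and was not followed under the alternatives. LOC_Os02g01810 (449100 to 449841) had 54.0, 51.5 and 52.7 FPKM in YIL25 against 21.8, 22.7 and 20.2 FPKM in Teqing1 (1.25, SE 0.0495, limma adjusted p = 2.12e-06). LOC_Os03g02470, already described as high in both transgenic lines, had 242, 241 and 234 FPKM in YIL25 against 125, 138 and 136 FPKM in Teqing1. Its log2 fold change of 0.84 (SE 0.0413, limma adjusted p = 4.98e-06) was under the fold limit, which of the settings tried it passed only with that scaling, and it lies at 887193 on chromosome 3.

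Teqing1 also served as a further Teqing culture that had no part in the choice of genes, although the pOE values did. The lowest pOE library was more than 2 times the highest Teqing1 library in 61 of the 77 genes (79.2%), where 7.56% of the listed genes with at least 5 FPKM in pOE met this limit, and the choice by pOE level favours a large share. These tables were normalised separately, so the levels are set side by side without a test. In 76 genes every pOE library was above every Teqing1 library. The exception was LOC_Os01g08140, with 28.4, 27.8 and 30.9 FPKM in pOE, against 23.4, 28.7 and 26.3 FPKM in Teqing1, 7.21, 5.20 and 8.84 FPKM in Teqing2 and 9.99, 7.09 and 9.80 FPKM in Teqing3. In this gene a Teqing culture overlapped pOE. LOC_Os01g51870 and LOC_Os01g68670 were listed at 0 in all YIL25 and Teqing1 libraries, though LOC_Os01g51870 had 12.6, 12.6 and 11.9 FPKM in Teqing2, and whether these zeros are measurements is not known.

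Across the 6 groups, the 77 genes had a median level of 29.0 FPKM in pOE, 7.51 FPKM in pCPL and 1.93 FPKM in YIL25, against 7.28 FPKM in Teqing1, 6.04 FPKM in Teqing2 and 7.84 FPKM in Teqing3. pOE had the highest mean in 75 of them, pCPL in 1 (LOC_Os03g02470) and YIL25 in 1 (LOC_Os02g08230). YIL25 had the lowest mean in 53. The lowest pOE library was over 2 times the highest YIL25 library in 70 genes (90.9%), where 16.7% of the listed genes with at least 5 FPKM met this limit. The choice of genes by their pOE level favours this count and the rank of pOE, and nothing is read from them.

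**Figure D5:**
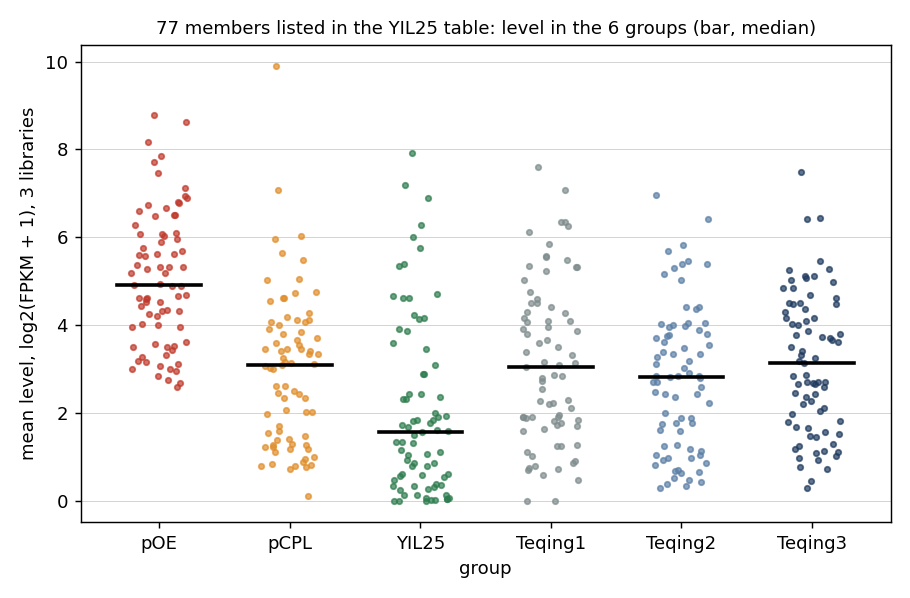
Mean level over 3 libraries of the 77 genes listed in the YIL25 table, as log2(FPKM + 1), with 1 point per gene and a bar at the median, for pOE, pCPL, YIL25, Teqing1, Teqing2 and Teqing3. The pOE median is 29.0 FPKM and the YIL25 median 1.93 FPKM, while pCPL and the Teqing cultures lie between 6.04 and 7.84 FPKM.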

How the data were processed

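RNA-seq was made from callus of 6 groups with 3 libraries each. According to the study, Illumina reads were mapped with TopHat2 to IRGSP-1.0 (MSU7), and CASAVA 1.8, bcl2fastq and Cufflinks stand in the submitters' processing notes. The authors deposited FPKM per gene in 3 tables, 1 per line with its Teqing culture, each normalised separately, beside gene coordinates, the gene length (other unit, in bases) and their own fold changes and p-values, which were not used. Depth was recovered from FPKM times length at low levels, where 91.8% to 100% of values were whole within 0.05 of a read. Columns of other samples numbered 0.

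Genes were joined by identifier, without entries lacking an annotation. Each line was compared with its own Teqing group by limma 3.58.1 in R 4.3.3 on log2(FPKM + 1) with a trended prior, for genes averaging over 1 FPKM in at least 1 of the 2 groups, with Benjamini-Hochberg adjustment over all genes tested. Fold changes on this scale understate those of low genes. Calls needed an adjusted p under 0.001 and a 2-fold change. P-values measure only the spread between these libraries, part of which may be technical. Tables were made with Python 3.11.15 and pandas 2.3.3.

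The genes and lists were chosen with earlier results of these data known. Genes were named as the 12 largest ratios, the 8 highest levels, the 5 largest increases and decreases called in YIL25 and in pCPL, up to 4 per word list, the 3 largest runs and the edges of the set; others were named after their values were seen. Alternatives were median-of-ratios scaling, other filters, pseudocounts and thresholds, voom on recovered reads, a replicate block and each library left out.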

Additional observations from a re-analysis of the deposited data

Results flagged for a closer look

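The results here stood out because the lines moved in opposite directions, and the difference was not tested. In 25 of the 77 listed genes every pCPL library was above every Teqing2 library while every YIL25 library was below every Teqing1 library, and in 2 genes the reverse held. That is 32.5% and 2.60% of the 77, where 12.9% and 6.80% of the 4072 listed genes with at least 5 FPKM in pOE did so. The choice of genes low in Teqing2 favours pCPL above Teqing2. Taken alone, every YIL25 library was below every Teqing1 library in 72.7% of the 77. Whether the joint share exceeds what these 2 shifts give separately was not tested, so nothing is read from it.

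Among the 77 listed genes, 4 genes of chromosome 1 were called in opposite directions, all higher in pCPL and lower in YIL25. That is 6.35% of the 63 genes of the set tested in both, where 35 of 5559 genes tested in both were so called (0.630%). The choice of genes low in Teqing2 favours a higher call in pCPL. LOC_Os01g50610 had log2 fold changes of 2.16 in pCPL and -1.69 in YIL25. LOC_Os01g39860 had 1.58 in pCPL and -1.78 in YIL25. LOC_Os01g06310 had 1.17 in pCPL and -1.79 in YIL25, and LOC_Os01g73940 had 1.11 in pCPL and -1.24 in YIL25. Levels of LOC_Os01g50610 were 8.77, 7.79 and 9.17 FPKM in pOE, 5.06, 6.11 and 4.18 FPKM in pCPL and 0.149, 0.338 and 0.122 FPKM in YIL25, against 2.46, 3.02 and 3.13 FPKM in Teqing1, 0.485, 0.0384 and 0.621 FPKM in Teqing2 and 1.37, 1.32 and 1.36 FPKM in Teqing3. LOC_Os01g06310 averaged 3.08 FPKM in pCPL, against 0.817 FPKM in Teqing2, 5.29 FPKM in Teqing3 and 7.71 FPKM in Teqing1. Its pCPL mean was thus above that of Teqing2 only. Of the 4 genes, only LOC_Os01g50610 had its lowest pCPL library over 2 times every Teqing2 and Teqing3 library. The Teqing cultures differed among themselves for LOC_Os01g50610 and LOC_Os01g06310, and the part of that in the opposite directions was not tested.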

How the results depend on the processing

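The number of genes within the limits was 376, and it became 586 with a mean pOE of at least 1 FPKM, 766 with a ratio over 1.5 and 156 with a ratio over 3. With 1 library left out it was 385 to 405. In pCPL, 116 genes were higher and 81 lower at an adjusted p under 0.05 with no fold limit, against 34 and 17. The median log2 fold change in pCPL was 0.065 without a filter and 0.19 with a filter at 5 FPKM. In YIL25, 5 genes were higher with median-of-ratios scaling and 9 with no fold limit, against 2, and on chromosome 1 alone, an alternative added after the data were seen, 0 were higher and 21 lower. The YIL25 median was -0.97 with median-of-ratios scaling, -0.98 without a filter, -1.24 with a filter at 5 FPKM and -1.66 with a pseudocount of 0.1 FPKM. The pOE median was 1.95 with that pseudocount and 2.12 by voom on recovered reads. With 1 library left out, 31 to 34 genes were lower in YIL25, 30 to 36 higher and 17 to 18 lower in pCPL, and 61 to 63 over 2 times Teqing1.

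Same-numbered libraries did not deviate together (correlations from -0.05 to 0.01), so replicate numbers were not taken as pairs. With a replicate block, 29 genes were lower and 2 higher in YIL25, 31 higher and 17 lower in pCPL, and 300 higher in pOE. Of 27 calls of genes named by the stated rules, 3 were lost under at least 1 alternative (LOC_Os10g31460 and Os02g0571000 in pCPL, LOC_Os01g47070 in YIL25) and 0 changed direction. Calls of genes named outside those rules were not followed, among them the 4 genes called in opposite directions. A search of promoters was not run, since no promoter table was used here. Genes under 1 FPKM and the 223 genes outside the YIL25 table limit what can be said of YIL25.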
